A study of Mus musculus with 24 samples.

Results

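Neuropeptide genes are described here in hippocampal CA1 of mice after status epilepticus (SE). The 10 genes were taken by symbol from the deposited count table of 18647 genes and were Npy, Sst, Vip, Cck, Penk, Pdyn, Gal, Tac1, Crh and Scg2. Each of the 10 had 1 row in the table, and all 10 were among the 18153 genes that passed the filter on low counts. The question was which of these genes differed between SE and non-SE control animals, and at which time.

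RNA of microdissected CA1 was sequenced in 24 libraries, 3 per group. The 5 SE groups were named by their time after SE as SE 6 h, SE 12 h, SE 24 h, SE 36 h and SE 72 h, and the non-SE control groups (Ctr) at 12, 36 and 72 h. All animals were C57Bl/6N mice of at least 60 days and 20 g that were given 1 mg/kg scopolamine methyl nitrate and, 20 min later, either 335 mg/kg pilocarpine hydrochloride or saline. Diazepam (4 mg/kg) was part of the protocol of both arms, and pilocarpine-treated mice without SE were not included. SE 6 h and SE 24 h have no control group of their own time and were set against the mean of the 3 control groups. The labels number the libraries within a group and do not say whether animals were pooled. Library totals ranged from 2663936 counts (Ctr 72 h replicate 3) to 30133731 (SE 12 h replicate 2), with a median of 13521590.

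Neuropeptides are cut from larger precursor proteins in the regulated secretory pathway, are stored in dense-core vesicles and are released mainly during sustained or high-frequency firing. They act on G-protein-coupled receptors and change excitability and transmitter release over longer times than fast transmitters do. In the hippocampus, Npy, Sst, Vip and Cck are best known from subclasses of GABAergic interneurons, Penk and Pdyn from opioid-containing cells, and several of these genes are known to respond to seizures. Bulk tissue was measured, so a lower number of expressing cells and less RNA per cell cannot be told apart.

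Promoters of 5 of the genes are shown because they are those that hold letters of the cAMP response element (CRE), the site that CREB binds. Sst, Scg2 and Tac1 were called higher at 6 h and 12 h after SE, and Vip and Cck were not. Each line gives bases 100 to 1 before the RefSeq start, read 5′ to 3′ on the gene's strand in GRCm38.p6, with the full CRE or its TGACG part (read on either strand) in capitals. The Sst window is chr16:23890845-23890944 on the minus strand, that of Scg2 chr1:79440027-79440126 on the minus strand, that of Vip chr10:5639118-5639217 on the plus strand, that of Cck chr9:121495695-121495794 on the minus strand and that of Tac1 chr6:7554961-7555060 on the plus strand.
Sst: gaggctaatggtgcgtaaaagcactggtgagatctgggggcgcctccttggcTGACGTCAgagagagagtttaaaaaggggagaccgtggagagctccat
Scg2: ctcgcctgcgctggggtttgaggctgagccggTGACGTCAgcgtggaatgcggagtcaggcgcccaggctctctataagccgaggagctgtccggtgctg
Tac1: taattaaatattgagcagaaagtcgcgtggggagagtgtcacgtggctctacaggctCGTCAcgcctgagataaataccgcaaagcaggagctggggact
Vip: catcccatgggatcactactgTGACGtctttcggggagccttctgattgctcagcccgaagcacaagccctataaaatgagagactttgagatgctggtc
Cck: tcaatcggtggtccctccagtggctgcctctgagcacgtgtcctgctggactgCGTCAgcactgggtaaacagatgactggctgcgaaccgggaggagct

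Of the 10 genes, 8 had a promoter entry, and Penk and Crh were not analysed here. The full CRE (TGACGTCA, the same on both strands) lay 48 bases before the start of Sst and 68 bases before that of Scg2. It was present in 1.55% of the 32851 windows of 250 bases before a start. The short CRE (TGACG on either strand, also a part of every full CRE) was present in 17.8% of windows and in 5 of the 8 genes: Sst, Scg2, Vip (79 bases before the start), Cck (47) and Tac1 (43 and 197). The AP-1 site (TGACTCA on either strand) was in none of the 8 and in 4.46% of windows. Npy, Gal and Pdyn held none of the 3 motifs in the window. These matches describe letters and not binding, and genes with and without a CRE were among those that rose.

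In the 9 control libraries the genes differed widely in level per transcript length, given here as CPM (counts scaled to the size of the library) per kilobase of the canonical transcript. Sst was highest at 99.4 ± 31.0 (SD, n = 9), followed by Scg2 at 81.5 ± 18.3, Npy at 59.9 ± 15.4 and Cck at 49.3 ± 3.44. Vip had 19.1 ± 4.97 and Penk 7.75 ± 3.07. Tac1 (5.69 ± 6.30), Gal (2.38 ± 5.07), Crh (0.907 ± 0.840) and Pdyn (0.644 ± 0.656) were the lowest. Of the neighbours in this order, only Cck and Vip had ranges that did not overlap. With the length of all exons in place of the canonical transcript, Scg2 came before Sst, Cck before Npy and Penk before Vip.

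After SE, 8 of the 10 genes were upregulated at 1 or more times and the other 2, Cck and Vip, were lower at 72 h. The share of all genes called at 1 or more times is not given, and the shares below are those of single times. A gene is called upregulated or downregulated where the log2 fold change (log2FC) was 0.66 or more in size and the adjusted p of edgeR's quasi-likelihood test did not exceed 0.05. At 6 h, 6 genes rose and none fell, against 22% of all genes called in either direction, 15.8% higher and 6.21% lower. At 12 h, 8 rose and none fell (25.3% of all genes called, 13.9% higher), and at 24 h 7 rose and none fell (24.2% called, 15% higher and 9.22% lower). At 36 h, 6 rose and none fell (21.6% called, 12.7% higher and 8.92% lower). At 72 h, 4 rose and 2 fell, when 19.5% of all genes were called, 15.3% higher and 4.22% lower.

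The median log2FC of the 10 genes was 1.46, 2.55, 1.95, 2.14 and 0.72 in order of time. The median of all genes tested lay between 0.00 and 0.10 in these comparisons. The comparisons at 6 h and 24 h use all control libraries, so they share controls with each other and with those at 12, 36 and 72 h. Without the 6 libraries with most sensory ganglion RNA (described below with Gal and Tac1), 6, 8, 8 and 7 genes were called from 6 h to 36 h. This setting was chosen after seeing the data and leaves 1 SE 72 h library, assumed to vary like those of the other groups. At 72 h the log2FC was then 1.70 for Npy, 4.35 for Gal, 1.63 for Penk, 1.12 for Pdyn, -0.58 for Vip and -0.55 for Cck. Over 16 alternative settings the call at 72 h was kept in all for Npy. It was lost in 2 each for Gal and Cck, 4 for Penk, 5 for Pdyn and 8 for Vip.

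**Figure D1:**
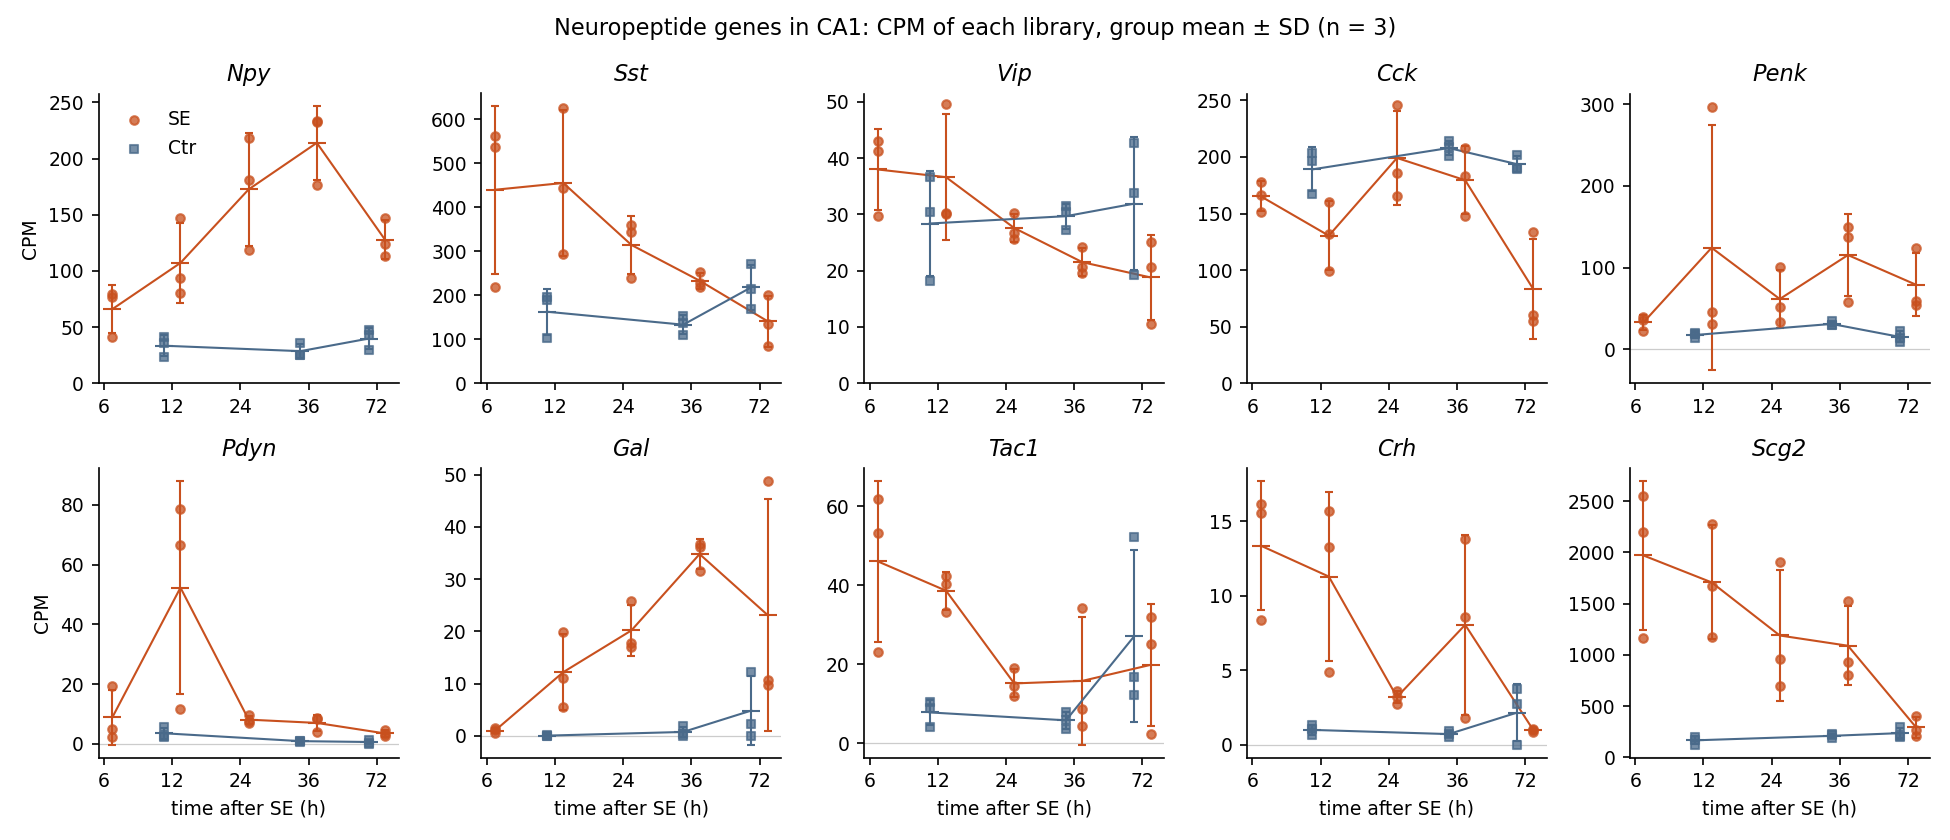
CPM (linear axis from 0 or just below) of the 10 neuropeptide genes in every library by hours after SE (equally spaced), with SE libraries as orange circles, non-SE controls (Ctr) as blue squares, and horizontal marks with bars for the group mean ± SD (n = 3). Npy and Gal had their highest group means at 36 h, Sst, Penk and Pdyn at 12 h, and Crh, Scg2 and Tac1 at 6 h. That of Penk came mainly from SE 12 h replicate 2 (297 CPM, against 30.8 and 45.3 CPM in replicates 1 and 3).

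**Figure D2:**
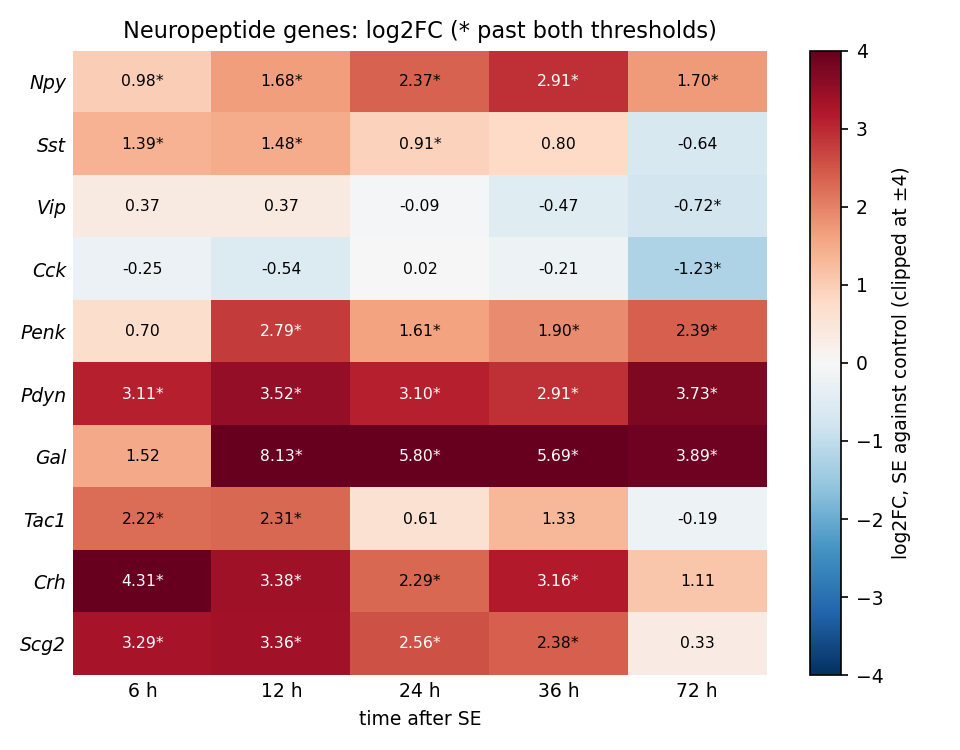
The log2 fold change of each of the 10 genes (rows) in SE against control at each time (columns), with values printed, colour clipped at ±4 and an asterisk where both thresholds were passed. Npy and Pdyn carry an asterisk at all 5 times, and negative values past the thresholds stand only at 72 h, for Vip and Cck.

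Npy (all positions of the 10 genes are in GRCm39, here chr6:49799026-49806489, plus strand) encodes neuropeptide Y, a peptide known to lower glutamate release in the hippocampus. In the 9 controls it ranged from 23.1 to 47.0 CPM with a median of 35.7. SE libraries had 41.5, 79.5 and 76.8 CPM at 6 h, 93.3, 80.6 and 147 CPM at 12 h, and 181, 119 and 218 CPM at 24 h. At 36 h they had 232, 176 and 233 CPM, and at 72 h 113, 124 and 147 CPM. From 12 h on, every SE library was above every control library, and at 6 h 1 of the 3 lay within the control range. Npy was upregulated at all 5 times, with log2FC values, in order of time, of 0.98 ± 0.21 (± standard error of the estimate), 1.68 ± 0.28, 2.37 ± 0.20, 2.91 ± 0.29 and 1.70 ± 0.28 (edgeR adjusted p = 0.00107, 9.43e-05, 1.32e-08, 2.61e-07 and 0.00015). The largest of these, at 36 h, was a 7.52-fold difference. The effect at 36 h exceeded that at 12 h by 1.23 ± 0.38 on the log2 scale, which did not pass the threshold (edgeR adjusted p = 0.0761).

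Sst (chr16:23707321-23711733, minus strand) encodes somatostatin, the marker of dendrite-targeting interneurons, and had its highest values earlier than Npy. Controls ranged from 102 to 271 CPM with a median of 170 CPM. SE libraries had 219, 563 and 537 CPM at 6 h, 295, 444 and 626 CPM at 12 h, and 343, 239 and 361 CPM at 24 h. The SE 36 h libraries had 253, 229 and 218 CPM, and at 72 h 85.2, 136 and 201 CPM. The SE 12 h libraries were all above Ctr 12 h, whereas SE 72 h overlapped Ctr 72 h and held the lowest value of all 24 libraries. Sst was upregulated at 6 h (log2FC 1.39 ± 0.25, edgeR adjusted p = 0.000203), 12 h (1.48 ± 0.33, adjusted p = 0.00168) and 24 h (0.91 ± 0.25, adjusted p = 0.0071). At 36 h the log2FC was 0.80 ± 0.33 (edgeR adjusted p = 0.0686), a value that was called in 5 of 16 alternative settings (0.47 to 0.93 over the 16), and at 72 h it was -0.64 ± 0.33 (edgeR adjusted p = 0.158), called lower in 1 of 16 alternative settings (-1.5 to -0.26 over the 16) and without Ctr 72 h replicate 2 (-0.82). The effect at 72 h was lower than that at 12 h by 2.12 ± 0.47 on the log2 scale (edgeR adjusted p = 0.00352, a difference for which 18.6% of all genes were called). The call at 24 h was lost without SE 24 h replicate 3 (0.80).

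Vip (chr10:5589186-5599956, plus strand) encodes vasoactive intestinal peptide, a marker of interneurons that mostly target other interneurons. Its controls ranged from 18.2 to 42.7 CPM with a median of 30.4. SE libraries had 29.6, 41.3 and 43.0 CPM at 6 h, and 10.5, 20.7 and 25.2 CPM at 72 h, where they overlapped the 33.8, 19.3 and 42.7 CPM of Ctr 72 h. Vip was downregulated at 72 h (log2FC -0.72 ± 0.26, edgeR adjusted p = 0.0477) and passed the threshold at no other time. This call was close to the threshold and was lost in 4 of the 6 omissions of a single Ctr 72 h or SE 72 h library, with a log2FC between -1.04 and -0.41 over the 6. It was also lost in 8 of 16 alternative settings (-1.33 to -0.58 over the 16), among them that without the RUVr factor, the factor of unwanted variation in the model (-0.75).

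Cck (chr9:121315695-121324863, minus strand), which encodes cholecystokinin and is used both by a class of basket cells and by pyramidal cells, had a control range of 167 to 214 CPM with a median of 201 CPM. At 12 h the SE libraries, with 99.5, 160 and 132 CPM, were all below Ctr 12 h, but the difference did not pass the threshold (log2FC -0.54 ± 0.24, edgeR adjusted p = 0.0862). It was called lower without SE 12 h replicate 2 (-0.71) and in 1 of 16 alternative settings, that with a factor for ranges of the label numbers (-0.93). At 24 h they had 186, 166 and 246 CPM and overlapped the controls. At 72 h they had 55.3, 60.1 and 134 CPM against 201, 189 and 190 CPM in Ctr 72 h. Cck was downregulated at 72 h, 2.34-fold (log2FC -1.23 ± 0.25, edgeR adjusted p = 0.000978), and fell from 36 h to 72 h after SE (log2FC -1.11 ± 0.25, edgeR adjusted p = 0.00699). SE 72 h replicates 1 and 2, the lowest, are 2 of the 6 libraries with most sensory ganglion RNA. Without these 6, 1 SE 72 h library was left, and neither the log2FC of -0.55 at 72 h nor that of -0.30 from 36 h to 72 h passed the threshold. The call from 36 h to 72 h was also lost without SE 36 h replicate 3, SE 72 h replicate 1 (-0.88) or SE 72 h replicate 2 (-0.93). The exons of Cck overlap 418 bases of Gm68675 and 276 of Gm69828 on the opposite strand, and counting ignored strand.

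Penk (chr4:4132722-4141856, minus strand) encodes proenkephalin, the precursor of the enkephalins. Controls ranged from 9.55 to 34.2 CPM with a median of 19.8. SE libraries had 23, 36.1 and 39.7 CPM at 6 h, 30.8, 297 and 45.3 CPM at 12 h, and 32.9, 51.3 and 101 CPM at 24 h. At 36 h they had 58.3, 150 and 138 CPM, and at 72 h 123, 53.9 and 59.7 CPM. SE and control libraries of the same time did not overlap at 12, 36 and 72 h, and the spread at 12 h came mainly from replicate 2. Penk was upregulated at 12 h (log2FC 2.79 ± 0.64), 24 h (1.61 ± 0.47), 36 h (1.90 ± 0.62) and 72 h (2.39 ± 0.67), with edgeR adjusted p-values of 0.00202, 0.00928, 0.0236 and 0.0114, but not at 6 h (0.70 ± 0.49, edgeR adjusted p = 0.268). Without SE 12 h replicate 2 the log2FC at 12 h was 1.09 and not called, without SE 24 h replicate 3 that at 24 h was 1.06 and not called, and the call at 36 h was lost in 5 of 7 omissions of a library (1.68 to 2.20). At 72 h it was lost without Ctr 72 h replicate 2 (2.05) or SE 72 h replicate 1 (1.90), and in 4 of 16 alternative settings (1.5 to 2.45 over the 16), limma-voom among them (2.21). The exons of Penk overlap 390 bases of A830012C17Rik on the opposite strand, and since counting ignored strand, reads of the 2 genes there cannot be told apart.

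Pdyn (chr2:129528469-129541945, minus strand) encodes prodynorphin, the precursor of the dynorphins, and is known as a marker of dentate granule cells. Controls ranged from 0 to 5.57 CPM with a median of 1.08. SE libraries had 19.3, 4.90 and 2.34 CPM at 6 h, 11.8, 78.7 and 66.4 CPM at 12 h, and 7.01, 7.66 and 9.60 CPM at 24 h. The SE 36 h libraries had 8.30, 8.75 and 3.93 CPM, and at 72 h 4.67, 3.15 and 2.58 CPM. At 6 h, 2 of the 3 SE libraries (4.90 and 2.34 CPM) lay within the control range, and at 24 h all were above it. At 12, 36 and 72 h every SE library was above every control of the same time, and 2 of the 3 SE 12 h libraries stood far above all others. Pdyn was upregulated at all 5 times, with log2FC values of 3.11 ± 0.56, 3.52 ± 0.64, 3.10 ± 0.57, 2.91 ± 0.71 and 3.73 ± 1.19 in order of time (edgeR adjusted p = 0.000208, 0.000246, 0.000222, 0.00375 and 0.0237). It rose from 6 h to 12 h (log2FC 2.39 ± 0.59, edgeR adjusted p = 0.0274, with 1.34% of all genes called) and fell from 12 h to 24 h (-2.40 ± 0.60, edgeR adjusted p = 0.0181, with 3.22% of all genes called). Each of the 2 step calls was lost in 4 of 7 omissions of a library, with a log2FC of 1.84 to 3.72 for the rise and -3.14 to -1.93 for the fall. The value at 72 h rests on few counts, 17, 0 and 1 in Ctr 72 h, and was 2.12 and not called without the RUVr factor. It was 1.55 and not called without Ctr 72 h replicate 2. The dentate marker Prox1 was at 9.18 CPM in SE 12 h replicate 2, the library with the most Pdyn and Penk, at 51.1 in replicate 3 and at 39.9 in replicate 1. It was at 11.4 to 47.0 CPM in Ctr 12 h. At 72 h Prox1 was at 134 CPM in SE 72 h replicate 1, the SE 72 h library with the most Pdyn. It was at 15.2 and 22.1 CPM in the other SE 72 h libraries and at 2.05 to 13.8 CPM in Ctr 72 h. At that time 4 of 7 dentate granule cell markers were called higher (median log2FC 3.29). Of all genes, 19.5% were called at 72 h, 15.3% higher. The part of dentate tissue in these results was not tested.

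Gal (chr19:3459912-3464881, minus strand) encodes galanin, a peptide of monoaminergic projections and of injured sensory neurons, and was at or near 0 in most controls. Ctr 12 h had 0, 1 and 1 counts. Ctr 36 h had 0, 0.418 and 1.81 CPM, and Ctr 72 h 0, 12.3 and 2.25 CPM. SE libraries had 1.44, 0.588 and 1.02 CPM at 6 h, 11.1, 19.9 and 5.58 CPM at 12 h, and 17.8, 16.9 and 25.8 CPM at 24 h. At 36 h they had 31.5, 36.2 and 36.8 CPM, and at 72 h 48.8, 10.8 and 9.79 CPM. Gal was within the control range at 6 h, where the fitted log2FC was 1.52 ± 0.89 (edgeR adjusted p = 0.18) although the mean CPM was lower in SE (1.02) than in the controls (1.87). It was above the controls of the same time in every library at 12 h and 36 h. At 12 h it was at least 60.2-fold higher, with Ctr 12 h set to 3 counts per library (edgeR adjusted p = 1.98e-05). For 24, 36 and 72 h the log2FC values were 5.80 ± 0.61, 5.69 ± 0.79 and 3.89 ± 0.86 (edgeR adjusted p = 3e-07, 1.71e-05 and 0.00211). The fitted fold at 24 h was 55.6, while mean CPM was 20.2 in SE and 1.87 in the controls. These controls include Ctr 12 h with its counts at or near 0. The fitted fold at 72 h was 14.8, while mean CPM was 23.1 in SE and 4.84 in Ctr 72 h. At 72 h the groups overlapped because of Ctr 72 h replicate 2, and the call was lost without the RUVr factor (2.28) or without Ctr 72 h replicate 1 (2.06). Gal rose from 6 h to 12 h (log2FC 3.66 ± 0.74, edgeR adjusted p = 0.0104), a call lost without the RUVr factor (3.57) or without SE 6 h replicate 3 (3.64).

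Tac1 (chr6:7554120-7565834, plus strand) encodes the precursor of substance P and neurokinin A. Of the 9 controls, 8 had 3.52 to 16.9 CPM, and Ctr 72 h replicate 2 had 52.2 CPM. SE libraries had 23.2, 53.2 and 61.9 CPM at 6 h, 42.5, 40.3 and 33.2 CPM at 12 h, and 12.0, 14.5 and 19 CPM at 24 h. Values at 36 h were 8.74, 4.41 and 34.3 CPM, and at 72 h 32.1, 25.1 and 2.48 CPM. At 12 h all SE libraries were above Ctr 12 h, whereas at 36 h and 72 h they spread over the control range. Tac1 was upregulated at 6 h (log2FC 2.22 ± 0.46, edgeR adjusted p = 0.000776) and 12 h (2.31 ± 0.64, edgeR adjusted p = 0.00734). The log2FC was 0.61 ± 0.50, 1.33 ± 0.64 and -0.19 ± 0.64 at 24, 36 and 72 h, none past the threshold (edgeR adjusted p = 0.351, 0.125 and 0.861).

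Gal and Tac1 are also genes of sensory ganglia, so they were set beside a list of 14 sensory ganglion genes, all detected, that included the sodium channel Scn10a and the intermediate filament gene Prph. The summed CPM of this list was 2066 in Ctr 72 h replicate 2, 1099 in SE 72 h replicate 1, 971 in SE 36 h replicate 3, 767 in SE 12 h replicate 1, 583 in SE 72 h replicate 2 and 390 in SE 6 h replicate 3. It was 7.41 to 92.6 in the other 18 libraries, in which up to 5 of the 14 genes had 0 counts. The most abundant gene in each of the 6 was Sncg (79.2 to 416 CPM). Scn10a was at 60.6 to 355 CPM and Prph at 75.4 to 351 CPM in the 6 libraries, against at most 12.0 and 18.4 CPM in the others. SE 24 h held none of the 6 libraries.

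Among the controls, Gal was highest in Ctr 72 h replicate 2, where Scn10a was at 355 CPM, and next in Ctr 72 h replicate 3 (Scn10a 12.0 CPM) and Ctr 36 h replicate 3 (8.96 CPM). Among SE libraries, Gal reached 31.5 and 36.2 CPM in SE 36 h replicates 1 and 2, where Scn10a was at 0.0741 and 0.0788 CPM and Prph at 0.148 and 0.473 CPM. The most Gal was in SE 72 h replicate 1 (48.8 CPM), and the most at 36 h in SE 36 h replicate 3 (36.8 CPM). Both are among the 6 libraries. Tac1 was at 23.2 and 53.2 CPM in SE 6 h replicates 1 and 2, with Scn10a at 0.320 and 0.392 CPM. The highest Tac1 at 6 h (61.9 CPM, SE 6 h replicate 3) and at 12 h (42.5 CPM, SE 12 h replicate 1) stood among the 6 libraries. At 12 h the other replicates had 40.3 and 33.2 CPM. The high Tac1 values at 36 h and 72 h stood in SE 36 h replicate 3 (Scn10a 155 CPM) and SE 72 h replicates 1 and 2 (174 and 79.5 CPM). Of the 14 ganglion genes, 3 were called higher at 6 h and 3 at 12 h (median log2FC 2.91 and 4.90), with 15.8% and 13.9% of all genes. The part of ganglion RNA in Gal and Tac1 was not tested. Over the 24 libraries the correlation with the mean scaled level of the ganglion list was 0.612 for Tac1 and 0.399 for Gal (Pearson's r, described without a test, since libraries of a group share treatment and time). Of the other genes, Cck had the value largest in size (-0.442), followed by Vip (-0.349).

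Without the 6 libraries, Gal remained upregulated at 12 h (log2FC 8.06 against 8.13 with all libraries, fitted against controls at or near 0), 24 h (6.36), 36 h (5.61) and 72 h (4.35). Tac1 remained upregulated at 6 h (2.11) and 12 h (2.27) and was also called at 24 h (0.81). At 36 h its log2FC was then 0.19, and at 72 h it was -2.50 and called, with 1 SE 72 h and 2 Ctr 72 h libraries left, the single library being assumed to vary like those of the other groups.

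**Figure D3:**
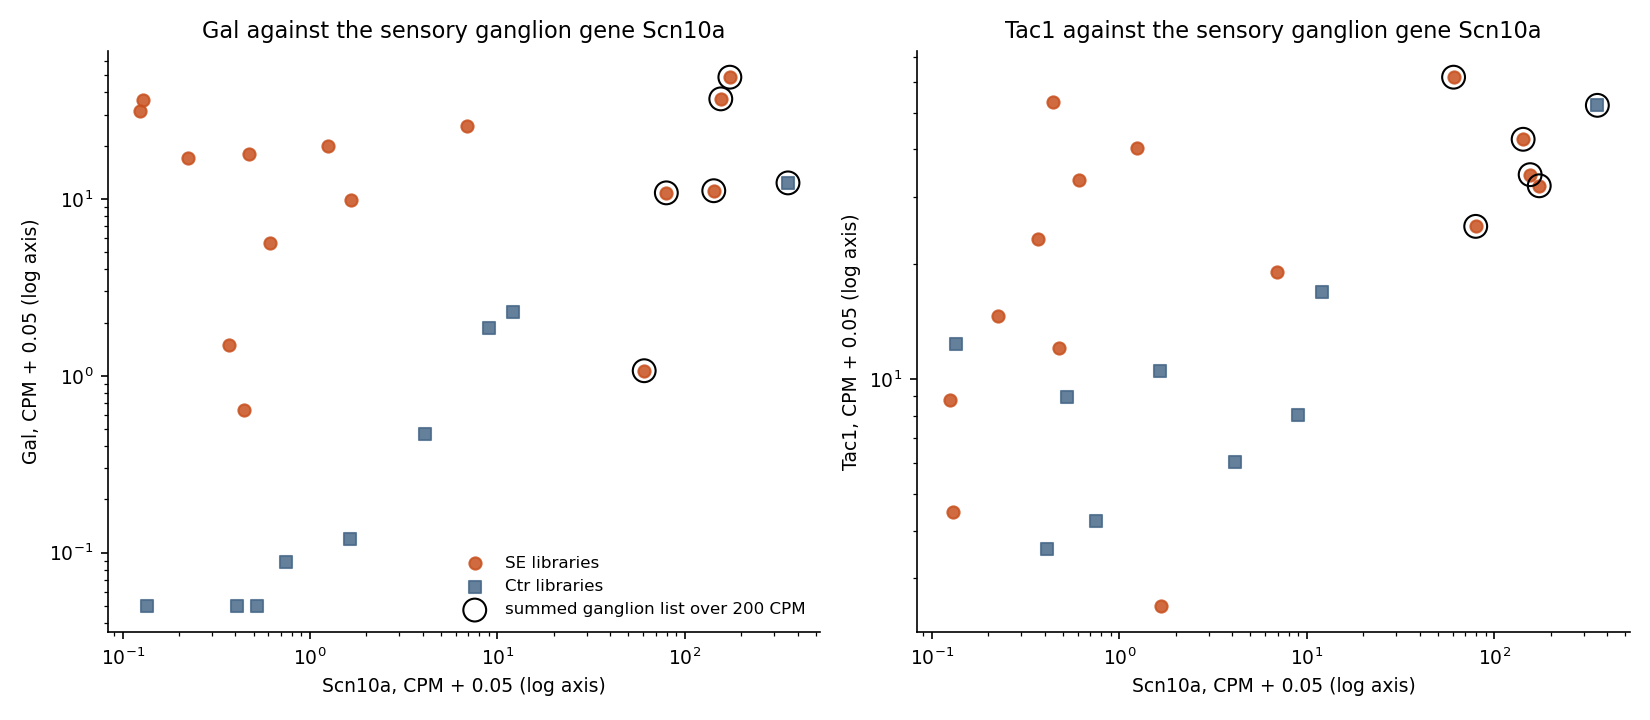
Gal (left) and Tac1 (right) against the sensory ganglion gene Scn10a in the 24 libraries, as CPM plus 0.05 on log axes, with SE libraries as orange circles, non-SE controls as blue squares and a black ring around the 6 libraries whose summed ganglion list exceeded 200 CPM. The 3 controls with most Gal are the 3 with most Scn10a (8.96 to 355 CPM). SE libraries reach 31.5 and 36.2 CPM of Gal at the lowest Scn10a levels. Ringed libraries hold the most Gal (48.8 CPM, SE 72 h replicate 1) and the most at 36 h (36.8 CPM, SE 36 h replicate 3).

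Crh (chr3:19747565-19749655, minus strand) encodes corticotropin-releasing hormone, which in the hippocampus is made by interneurons. Controls ranged from 0 to 3.75 CPM with a median of 0.887. SE libraries had 8.39, 16.2 and 15.5 CPM at 6 h, 4.87, 13.3 and 15.7 CPM at 12 h, and 2.76, 3.61 and 3.22 CPM at 24 h. At 36 h they had 13.8, 8.59 and 1.77 CPM, and at 72 h 1.01, 1.05 and 0.877 CPM. All SE 6 h and SE 12 h libraries were above all 9 controls. All SE 24 h libraries lay within the range of the 9 controls, with a mean of 3.2 CPM against 1.28 CPM. At 72 h the SE libraries were between the highest and the lowest of Ctr 72 h. Crh was upregulated at 6 h (log2FC 4.31 ± 0.33), 12 h (3.38 ± 0.43), 24 h (2.29 ± 0.38) and 36 h (3.16 ± 0.44), with edgeR adjusted p-values of 9.31e-09, 6e-06, 7.08e-05 and 1.77e-05. Without the RUVr factor, these values were 3.57, 3.53, 1.52 and 3.47. At 72 h the fitted log2FC of 1.11 ± 0.78 did not pass the threshold (edgeR adjusted p = 0.314), while the mean CPM was lower in SE (0.977) than in Ctr 72 h (2.15) and the log2FC without the RUVr factor was -1.05. Crh fell from 12 h to 24 h (log2FC -1.58 ± 0.38, edgeR adjusted p = 0.0151) and from 36 h to 72 h (-2.71 ± 0.44, edgeR adjusted p = 0.000594, with 4.17% of all genes called). The call from 12 h to 24 h did not hold in 3 of 7 omissions of a library (-2.13 to -1.27) and without the RUVr factor (-1.80).

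Scg2 (chr1:79412386-79417837, minus strand) encodes secretogranin II, a granin of dense-core vesicles and the precursor of secretoneurin, and had the highest mean level per kilobase of the 10 genes over the SE libraries (497 CPM per kilobase). Controls ranged from 125 to 297 CPM with a median of 204. SE libraries had 1160.2, 2196 and 2553 CPM at 6 h, 1671, 1171 and 2280 CPM at 12 h, and 961, 697 and 1910 CPM at 24 h. Values at 36 h were 932, 1528 and 808 CPM, and at 72 h 402, 208 and 270 CPM. From 6 h to 36 h every SE library was above every control, and at 72 h the groups overlapped. Scg2 was upregulated 9.77-fold at 6 h (log2FC 3.29 ± 0.26), 10.2-fold at 12 h (3.36 ± 0.38), 5.88-fold at 24 h (2.56 ± 0.26) and 5.21-fold at 36 h (2.38 ± 0.37), with edgeR adjusted p-values of 1.27e-08, 1.99e-06, 1.82e-07 and 5.51e-05. At 72 h the log2FC was 0.33 ± 0.35 (edgeR adjusted p = 0.527). It fell from 36 h to 72 h (log2FC -1.91 ± 0.36, edgeR adjusted p = 0.00233). The effect at 72 h was lower than that at 12 h by 3.03 ± 0.51 (edgeR adjusted p = 0.00047) and lower than that at 36 h by 2.05 ± 0.50 on the log2 scale (edgeR adjusted p = 0.0228, a difference for which 4.89% of all genes were called). The latter call was lost without Ctr 36 h replicate 1 (-1.97), SE 36 h replicate 2 (-1.72) or SE 72 h replicate 2 (-1.86).

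Between consecutive SE groups, where the threshold was an absolute log2FC of at least 1, 2 of the 10 genes rose from 6 h to 12 h (Gal and Pdyn, with 0.446% of all genes called higher) and 2 fell from 12 h to 24 h (Pdyn and Crh, with 1.72% called lower). From 24 h to 36 h edgeR called none (0.523% of all genes), with 1 gene, Crh, at an unadjusted p under 0.05, and DESeq2 and limma-voom called none either. From 36 h to 72 h, 3 fell (Cck, Crh and Scg2), when 3.12% of all genes were called higher and 1.05% lower. Between the SE effects at 36 h and at 12 h edgeR called none (3.37% of all genes, 1.98% higher), with 2 genes, Npy and Vip, at an unadjusted p under 0.05. DESeq2 called 1 gene and limma-voom none. Between 72 h and 12 h, 3 effects were lower at 72 h (Sst, Vip and Scg2, 6.28% of all genes called lower), and between 72 h and 36 h that of Scg2 was (1.14% called lower). The difference for Vip was -1.09 ± 0.37 (edgeR adjusted p = 0.0388) and was lost in 6 of 12 omissions of a library (-1.37 to -0.78). That for Tac1, -2.50 ± 0.90, lay just outside (edgeR adjusted p = 0.0503).

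Receptors for the peptides of the 10 genes numbered 21, all tested. Of these, 10 were called upregulated at 1 or more times, 6 downregulated and 1, Crhr1, in both directions. The share of all genes called at 1 or more times is not given, so these counts have no background beside them. By time, 8 rose and 2 fell at 6 h, 7 and 4 at 12 h, 6 and 3 at 24 h, 3 and 3 at 36 h, and 3 and 0 at 72 h. The share of all genes called was 22%, 25.3%, 24.2%, 21.6% and 19.5%, so that 6 of 21 receptors at 36 h and 3 of 21 at 72 h were near or below the background. Their median log2FC was 0.55, 0.44, 0.19, -0.08 and 0.12. For Npy, the receptor genes called were lower: Npy1r at 12 h (log2FC -0.74 ± 0.22, edgeR adjusted p = 0.0117) and 24 h (-0.86), Npy5r at 12 h (-0.84) and 24 h (-0.73), and Npy2r, the presynaptic receptor, at 6 h (-1.83) and 12 h (-3.18). Npy2r was at 121 CPM in Ctr 12 h replicate 3 and at 13.2 and 5.74 CPM in the other two Ctr 12 h libraries, and replicate 3 also held 336 CPM of the CA3 list against 71.5 and 72.1 in those. Without this library the log2FC of Npy2r at 12 h was -0.87 and not called, and its call at 6 h was lost in 10 of 12 omissions of a library (-1.98 to -1.07). The calls of Npy5r were lost in 4 of 7 omissions at 12 h and in 4 of 12 at 24 h.

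Of the somatostatin receptor genes, Sstr2 rose at 6 h (log2FC 2.13 ± 0.46, edgeR adjusted p = 0.00106), 12 h (1.84), 24 h (1.74) and 36 h (2.03), with 48.7, 67.4 and 55.6 CPM at 6 h against 5.88 to 32.2 CPM in the 9 controls. Sstr1 rose at 6 h (1.71) and Sstr4 fell at 36 h (-1.30). Of the galanin receptor genes, Galr1 rose from at most 0.415 CPM in controls to 1.68, 2.35 and 2.76 CPM at 6 h and 6.45, 27.7 and 0.513 CPM at 36 h. From 6 h to 36 h its log2FC values were 3.17 ± 0.85, 3.99, 3.57 and 5.52 ± 1.16 (edgeR adjusted p = 0.00587 at 6 h and 0.00107 at 36 h). Galr3 was called higher at 12, 24 and 36 h and never exceeded 2.15 CPM, and Galr2 was called higher at 72 h (1.69, groups overlapping). Without the 6 libraries with most sensory ganglion RNA, which leaves 1 SE 72 h library, the log2FC of Galr2 at 72 h was -0.19. For Sstr2 the calls at 12 h and 36 h were lost in 3 of 7 omissions of a library each.

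Of the opioid receptor genes, Oprk1, the receptor for dynorphins, fell at 6 h (log2FC -1.98 ± 0.58, edgeR adjusted p = 0.0102) and 36 h (-1.80), and Oprd1, a receptor for enkephalins, at 12 h (-1.30). Of the tachykinin receptor genes, Tacr3 rose at 6 h (2.88 ± 0.49, edgeR adjusted p = 0.000118) and 12 h (2.09), and Tacr1, the receptor for substance P, at 6 h (1.47), 24 h (1.92) and 72 h (3.06). The Ctr 72 h libraries had 1.18, 0 and 0.375 CPM of Tacr1 and the SE 72 h libraries 3.20, 2.77 and 3.75 CPM. Without the 6 libraries with most sensory ganglion RNA the log2FC of Tacr1 was 0.78 at 6 h and not called. At 72 h, with 1 SE 72 h library left, it was 1.94 in place of 3.06. The call of Oprk1 at 36 h was lost in 5 of 7 omissions of a library. Cckbr rose at 6 h (1.59), and Vipr1 at 6 h (1.26 ± 0.18, edgeR adjusted p = 2.16e-05), 12 h (1.09) and 24 h (0.88). Cckar was called higher at 6, 12, 24 and 72 h, but exceeded 1 CPM only in the 6 libraries with most sensory ganglion RNA (2.21 to 9.38 CPM), so no fold is given. Crhr1 was higher at 12 h (1.19 ± 0.31, edgeR adjusted p = 0.00513) and lower at 24 h (-1.08) and 36 h (-1.55).

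**Figure D4:**
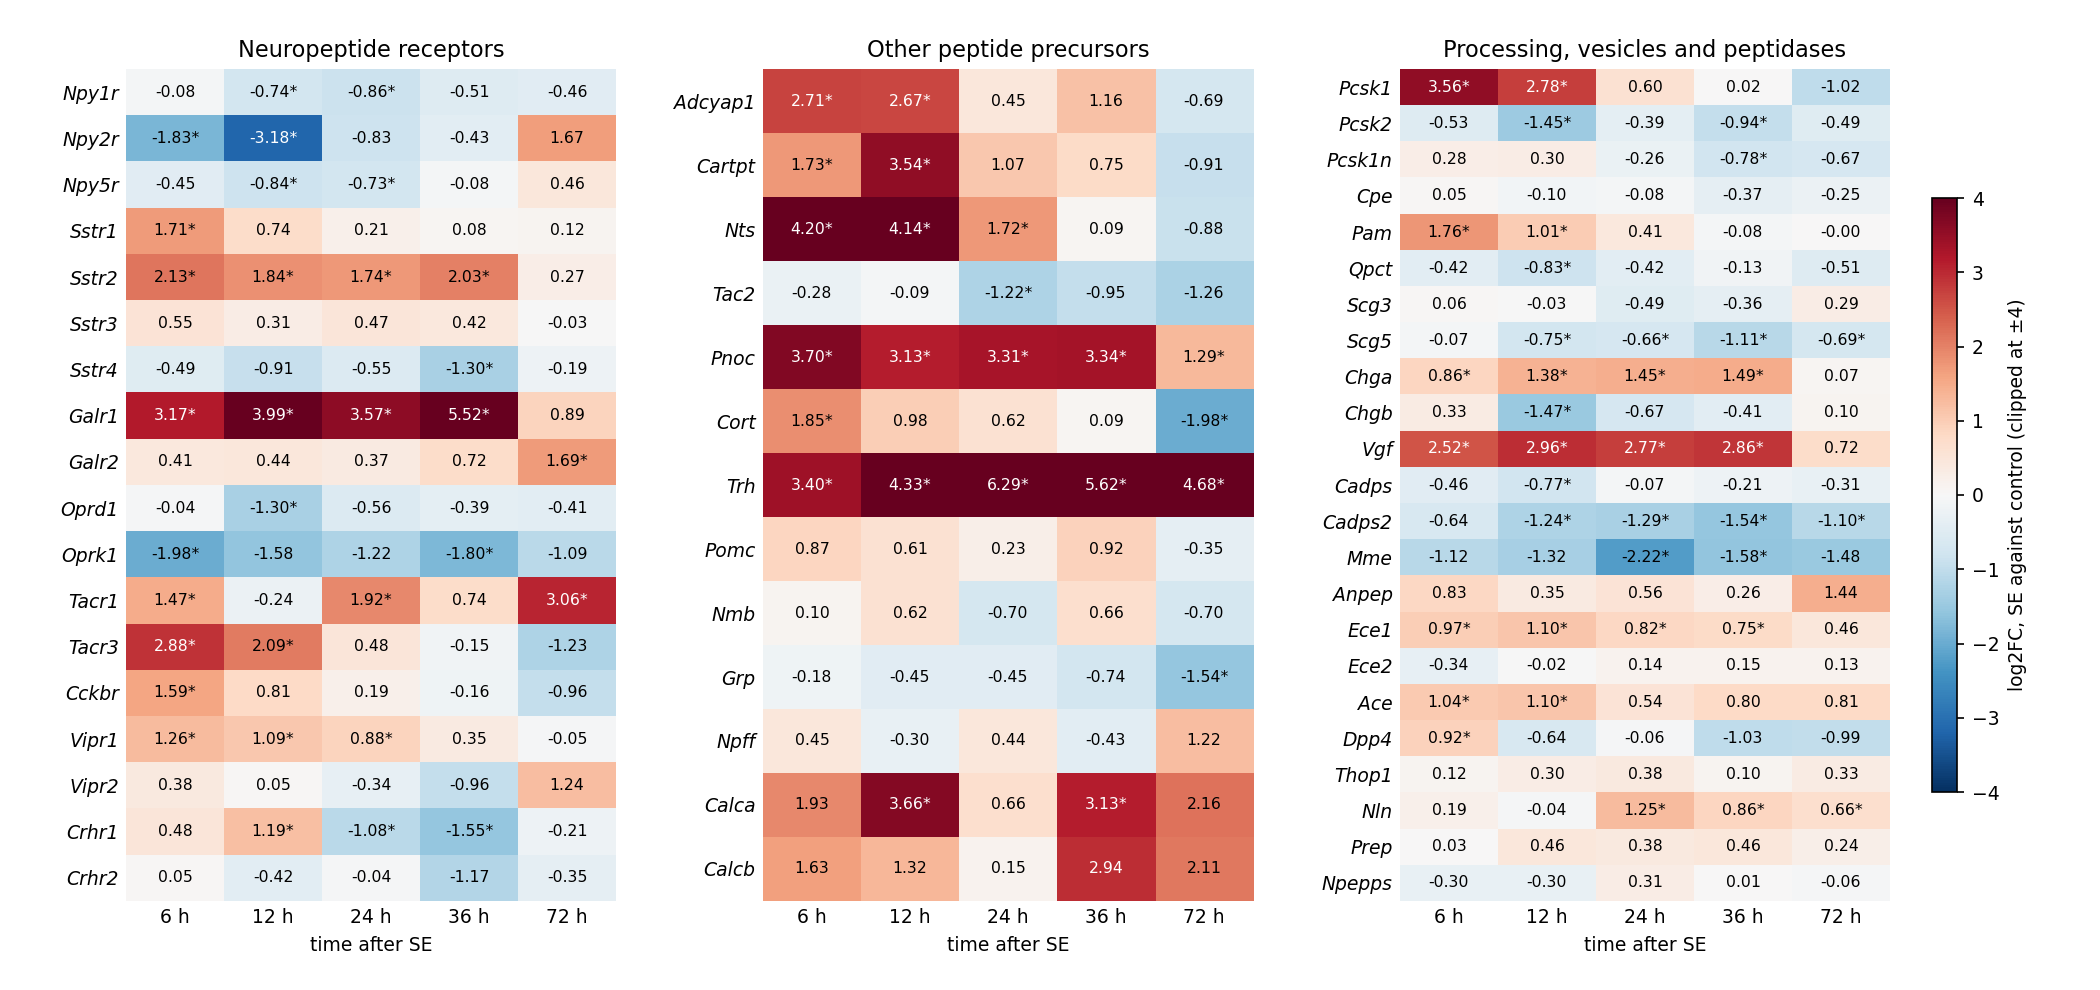
The log2 fold change in SE against control at each time (columns) of receptor genes (left), other peptide precursors (middle) and genes of processing, dense-core vesicles and peptide degradation (right) whose mean log2 CPM was 0 or above, with colour clipped at ±4 and an asterisk where both thresholds were passed. The receptor panel holds calls in both directions, and Trh and Pnoc carry an asterisk at all 5 times.

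Of 13 genes of peptide processing and dense-core vesicles, 4 rose and none fell at 6 h, 4 rose and 6 fell at 12 h, 2 and 2 at 24 h, 2 and 4 at 36 h, and none rose and 2 fell at 72 h. Of all genes 22%, 25.3%, 24.2%, 21.6% and 19.5% were called, and the 4 of 13 at 6 h and 24 h and the 2 of 13 at 72 h were near these shares. Pcsk1, the prohormone convertase that makes the first cuts in many precursors, had 242, 492 and 738 CPM at 6 h against 26.4 to 65.6 CPM in the 9 controls (log2FC 3.56 ± 0.31, edgeR adjusted p = 4.5e-08). It was also higher at 12 h (2.78) and not called later. Pam, which amidates peptide ends, rose at 6 h (1.76) and 12 h (1.01). The granins Vgf and Chga were higher from 6 h to 36 h, Vgf by 2.52, 2.96, 2.77 and 2.86 and Chga by 0.86, 1.38, 1.45 and 1.49 on the log2 scale. In contrast, Chgb, also a granin, was called lower at 12 h (-1.49 to -0.88 over 16 alternative settings, with the call lost in 1). Pcsk2 fell at 12 h (-1.45) and 36 h (-0.94). Scg5, the chaperone of Pcsk2, and Cadps2, a factor of vesicle priming, fell from 12 h to 72 h (Scg5 -0.75, -0.66, -1.11 and -0.69, Cadps2 -1.24, -1.29, -1.54 and -1.1). The call of Scg5 was lost in 4 of 15 alternative settings at 24 h and in 5 of 16 at 72 h (-0.76 to -0.55), and that of Cadps2 in 3 of 16 at 72 h (-1.27 to -0.80). Cpe, the carboxypeptidase that trims the cut peptides, was called at no time.

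Of 10 genes of peptide-degrading peptidases, 3 rose at 6 h and 2 at 12 h, 2 rose and 1 fell at both 24 h and 36 h, and 1 rose at 72 h. The shares called, 3, 2, 3, 3 and 1 of 10, were close to the 22%, 25.3%, 24.2%, 21.6% and 19.5% of all genes. Ece1 rose from 6 h to 36 h (log2FC 0.97, 1.1, 0.82 and 0.75) and Ace at 6 h (1.04) and 12 h (1.1). Nln, which cleaves neurotensin, rose at 24 h (1.25) and 36 h (0.86). At 72 h it was called with a value at the threshold (0.66), which was lost in 7 of 16 alternative settings (0.59 to 0.76). Mme, or neprilysin, which degrades enkephalins and substance P, fell at 24 h (-2.22) and 36 h (-1.58), the latter lost in 6 of 7 omissions of a library (-3.10 to -1.14).

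Of 25 other neuropeptide precursor genes looked for, 15 were tested. Of these 15, 8 rose and none fell at 6 h and at 12 h, 5 rose and 1 fell at 24 h, 5 rose at 36 h, and 2 rose and 2 fell at 72 h, and their median log2FC was 1.85, 2.67, 0.62, 0.92 and -0.69. The shares of all genes called were 22%, 25.3%, 24.2%, 21.6% and 19.5%, and the 4 of 15 at 72 h were near the background. The counts at 12 h and 36 h include Calca, which is also a ganglion gene, and whose call was lost without SE 12 h replicate 1 at 12 h (1.68) and without SE 36 h replicate 3 at 36 h (0.61). Without the 6 libraries with most sensory ganglion RNA, 7 rose at 6 h, 9 rose and 1 fell at 12 h, 6 rose and 1 fell at 24 h, and 4 rose at 36 h. The shares of all genes above are those with all libraries and not of this setting. Nts, the neurotensin precursor, had 90.6, 250.2 and 294 CPM at 6 h and 186, 144 and 319 CPM at 12 h against 3.29 to 26.2 CPM in controls (log2FC 4.20 ± 0.39 and 4.14 ± 0.59), and 8.37, 10.9 and 9.29 CPM at 36 h. Pnoc, the precursor of the opioid-like peptide nociceptin, was higher at all 5 times (3.70, 3.13, 3.31, 3.34 and 1.29). Trh, thyrotropin-releasing hormone, was below 1 CPM in all 9 controls and at 19.6, 51.6 and 38.3 CPM at 24 h (log2FC 6.29 ± 0.57, edgeR adjusted p = 3.78e-08), and it too was higher at all 5 times. Adcyap1, which encodes PACAP, rose at 6 h (2.71) and 12 h (2.67). At 72 h Grp (-1.54) and Cort, which encodes cortistatin (-1.98), were lower, and the call of Cort was lost in 4 of 6 omissions of a library. Cort was called in both directions, being higher at 6 h (1.85 ± 0.33, edgeR adjusted p = 0.000204). Without the 6 libraries with most sensory ganglion RNA, 1 SE 72 h library was left, and the log2FC at 72 h was 1.76 for Trh, 0.37 for Pnoc and -1.44 for Grp. Over 16 alternative settings the call at 72 h was lost in 4 for Trh, 6 for Pnoc and 3 for Grp.

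Of 15 genes that mark interneurons, 2 rose and 2 fell at 6 h, 2 and 4 at 12 h, none and 5 at 24 h, none and 4 at 36 h, and none and 7 at 72 h, with a median log2FC of -0.04, -0.26, -0.61, -0.25 and -0.52. The counts called, 4, 6, 5, 4 and 7 of 15, stand beside 22%, 25.3%, 24.2%, 21.6% and 19.5% of all genes, and those at 6 h and 36 h were near that background. Gad1 and Gad2, which make GABA, passed the thresholds at no time (log2FC between -0.50 and 0.64). The 2 markers that rose were Reln and Elfn1, each at 6 h and at 12 h. At 12 h both calls held in all 16 alternative settings (1.28 to 1.68 for Reln, 0.73 to 1.21 for Elfn1). At 6 h the call of Elfn1 held in all 15 settings, and that of Reln was lost in 3 of 15 (0.42 to 0.75). Erbb4 fell at 12, 24, 36 and 72 h (-1.30, -1.28, -1.70 and -1.49) and Nos1, known from a class of Npy-containing interneurons, at all 5 times (-0.66, -1.26, -1.69, -2.55 and -1.20). The value of Nos1 at 6 h lay at the threshold, and its call was lost in 7 of 15 alternative settings (-0.71 to -0.61) and in 5 of 12 omissions of a library. Of 6 CA1 pyramidal cell markers none rose, and 1, 1, 1, 3 and 2 fell in order of time, of which the 1 of 6 at 6, 12 and 24 h was below the share of all genes called. Of the CA1 markers, Wfs1 was at 67.8 to 537 CPM and Fibcd1 at 36.7 to 545 CPM over the libraries, so both were detected in every library at levels that varied within groups. Microglial markers fell at 6 h (5 of 5, median log2FC -1.13) and rose at 72 h (5 of 5, 2.01), 4 of 7 dentate granule cell markers rose at 72 h (3.29), and the part of such shifts in cell makeup in the values of the 10 genes was not tested.

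Across the 24 libraries, Npy and Gal ran most alike among the 10 genes (Pearson's r of log2 CPM 0.790), followed by Sst and Crh (0.780), Crh and Scg2 (0.777), and Sst and Scg2 (0.775). The lowest values were those of Gal with Vip (-0.426) and of Gal with Cck (-0.370). Compared with 12969 protein-coding genes, the pattern of Npy was most like that of Arhgdib (r = 0.972), P4hb (0.952) and Pxdc1 (0.95), and that of Gal like Clic1 (0.914), Sdc1 (0.909) and S100a10 (0.909). Scg2 ran with Srxn1 (0.964), Peg10 (0.961) and Eif5a (0.959), Sst with Kcnf1 (0.919), Elfn1 (0.91) and Rheb (0.906), and Crh with Samd11 (0.921), Pnoc (0.902) and Llph (0.894). Elfn1 is itself known from Sst interneurons and Pnoc is a peptide precursor of the list above. For Pdyn the nearest were Prg4 (0.911), Cad (0.896) and Mief1 (0.875), and for Vip Hdac5 (0.909), Adgra1 (0.884) and Tox2 (0.873). Cck ran with Hpcal4 (0.882), Ubqln4 (0.868) and Tnpo2 (0.851), Penk with Col27a1 (0.857), Prex1 (0.846) and Sec16b (0.802), and Tac1 with Adcyap1 (0.835), Ptger3 (0.826) and Akap12 (0.821). Libraries of a group share treatment and time, and depth differs between libraries. These correlations carry no test.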

How the data were processed

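The authors deposited 1 table of raw read counts per gene, which was used as deposited. According to their methods and processing notes, reads were trimmed with Trim Galore 0.6.6, aligned to GRCm39 with STAR 2.7.8a and counted without regard to strand with HTSeq 0.13.5 (SAMtools 1.10). Of the 18647 gene identifiers, 18552 matched a symbol in the GENCODE annotation used here, which is a later release than theirs, and 95 did not.

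Genes passing edgeR's filter on low counts (18153) were scaled by TMM and fitted over all 8 groups with 1 RUVr factor of unwanted variation (edgeR 4.0.16, R 4.3.3, limma 3.58.1). The quasi-likelihood test of edgeR was used for each contrast, two-sided, and p-values were adjusted over all genes tested (Benjamini-Hochberg). Calls required a log2FC of 0.66 or more in size (1 between SE time points) and an adjusted p not above 0.05. CPM values use TMM library sizes. The RUVr factor was -0.396, 0.797 and -0.358 in the Ctr 72 h libraries and between -0.0987 and 0.131 in the other 21. Nothing in the sources says that replicates of a group came from separate animals or pools, and p-values then measure the spread between these libraries.

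Alternatives were no factor, other factors, DESeq2 1.42.0, limma-voom, other scalings, filters and thresholds, a replicate block, and each library left out. The 10 genes, the gene lists and the tests were chosen with earlier results of these data known. Named genes were the 10 in every comparison, every receptor called, up to 4 called genes per list with the largest change among those whose mean log2 CPM was 0 or above and whose groups did not overlap, and per gene the 3 protein-coding genes with the highest correlation. Gad1, Gad2, Cpe, Chgb, Reln, Elfn1, Cckar, Galr2, Wfs1, Fibcd1, Cort and genes whose groups overlapped were named after their values were seen. Promoter sequences are RefSeq's for GRCm38.p6, a different build from that of the counts.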

Additional observations from a re-analysis of the deposited data

Results flagged for a closer look

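The SE effect differed between time points for 3 of the 10 genes, by a test of the difference itself (edgeR, Benjamini-Hochberg adjusted p). Of all genes, 18.6% were called for 72 h minus 12 h (6.28% lower) and 4.89% for 72 h minus 36 h (1.14% lower). For Sst, the log2FC at 72 h minus that at 12 h was -2.12 (adjusted p = 0.00352), with SE libraries above Ctr 12 h in 3 of 3 at 12 h. For Vip it was -1.09 (adjusted p = 0.0388). For Scg2 it was -3.03 (adjusted p = 0.00047), and the difference between 72 h and 36 h was -2.05 (adjusted p = 0.0228), with SE libraries above the controls in 3 of 3 at 12 h and at 36 h. The 4 differences share the Ctr 72 h and SE 72 h libraries, of which 3 are among the 6 with most sensory ganglion RNA. Without these 6, they were -1.95 for Sst, -1.03 for Vip, and -2.91 and -2.13 for Scg2. This setting leaves 1 SE 72 h library, assumed to vary like those of the other groups. The call for Vip was lost in 5 of 15 alternative settings (-1.61 to -1.03). The call of Scg2 for 72 h minus 36 h was lost without Ctr 36 h replicate 1 (-1.97), SE 36 h replicate 2 (-1.72) or SE 72 h replicate 2 (-1.86). The part of sensory ganglion RNA in the differences was not tested.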

How the results depend on the processing

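The number of the 10 genes called at 6 h and 12 h stayed within 1.5 times in every setting run, as it did at 24 h and 36 h. At 72 h it went from 6 to 3 without the RUVr factor, with limma-voom, and without the 6 libraries with most sensory ganglion RNA, with or without the factor. With limma-voom the calls lost were those of Penk (2.21), Pdyn (3.62) and Vip (-0.69). The settings without these 6 were chosen after seeing the data. They leave 1 SE 72 h library, assumed to vary like those of the other groups, in every comparison with SE 72 h. From 6 h to 12 h, 2 calls became 1 without the factor, with the compared groups only, and without the 6 libraries and the factor. From 12 h to 24 h, 2 became 1 without the factor and 0 with the compared groups only. From 24 h to 36 h, 0 became 1 without the 6 libraries, with or without the factor, and from 36 h to 72 h 3 became 1 without both. For the effect at 36 h minus that at 12 h, 0 became 1 with DESeq2 or library size only and 3 without the 6 libraries. For 72 h minus 12 h, 3 became 6 with DESeq2 and 5 with a sensory ganglion score as covariate or without the 6 libraries. For 72 h minus 36 h, 1 became 2 without the factor, with the ganglion score, with library size only or without the 6 libraries, 3 with the compared groups only and 5 with DESeq2. The causes were not tested.

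With 1 library left out at a time, 6 genes were called at 6 h and 8 at 12 h in all cases, whereas the counts for 24 h and 36 h were 5 to 7 and those for 72 h 4 to 6. The 8 at 12 h were not always the same genes, since without SE 12 h replicate 2 Penk was lost (1.09) and Cck was called lower (-0.71). Between SE groups the ranges were 0 to 3, 0 to 2, 0 to 1 and 2 to 3 in order of time, and for the effect differences 0 to 1 (36 h minus 12 h), 2 to 4 (72 h minus 12 h) and 0 to 4 (72 h minus 36 h).

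The sign changed for 3 of the 10 genes, all in values that were not called. Crh at 72 h was -1.05 without the factor, -0.63 with the ganglion score, -0.62 with a factor for ranges of the label numbers, -1.78 without the 6 libraries, -1.79 without them and the factor, and -1.65 to 2.50 with 1 library left out. Cck at 24 h was -0.01 with the ganglion score, -0.52 with the label number range, -0.01 without the 6 libraries, and -0.16 to 0.13 with 1 left out. Tac1 at 72 h was 0.91 with all 3 control groups as the control and -0.74 to 0.52 with 1 left out. Among the receptors, Galr2 at 72 h was -0.19 without the 6 libraries and -0.18 without them and the factor. With the label number range as a factor, the calls of Sst (0.27) and Penk (0.75) at 24 h and of Gal (3.26), Penk (1.5) and Pdyn (2.73) at 72 h were lost, and Cck at 12 h (-0.93) and Sst at 72 h (-1.5) were called lower.

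The labels do not say whether replicate numbers pair the libraries. The correlation of deviations for same-numbered libraries was 0.0821, 0.181 and -0.00172 at 12 h, 0.157, 0.0315 and 0.172 at 36 h, and -0.201, 0.0627 and 0.162 at 72 h. With 3 libraries per group these values cannot settle whether libraries were paired. With the replicate block, 3 genes in place of 1 were called for 72 h minus 36 h. Low counts limit Gal, Pdyn and Crh in controls, most of all in Ctr 72 h replicate 3 with 2663936 counts.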

Other observations

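Marker genes of neighbouring hippocampal fields varied between libraries of a group. The CA3 list summed to 336 CPM in Ctr 12 h replicate 3 and to 56.2 to 149 CPM in the other 23 libraries. The dentate marker Prox1 was at 134 CPM in SE 72 h replicate 1 and at 15.2 and 22.1 CPM in the other SE 72 h libraries. Calca, the gene of calcitonin gene-related peptide and also a ganglion gene, was at 51.7 to 272 CPM in the 6 libraries with most sensory ganglion RNA and at 0.967 to 10.1 CPM in the other 18.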
